A study of Mus musculus with 6 samples.

Results

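The complement genes described here are 9 of the 24422 genes in the count tables: *C3*, *C4b*, *C6*, *C7*, *Cfb*, *Cfi*, *C1s2*, *Cd46* and *Cd55*. They were chosen by name, as components or regulators of the complement cascade, with earlier results of these data known and without a threshold on the values. Kidneys of 6 wild type C57BL/6 pups at postnatal day 15 were profiled by RNA-seq of the whole organ. The dams, 8 weeks old when they were assigned to a diet, received either 2 to 6 ppm iron (iron deficient, FeD; 3 pups) or 220 ppm iron (control; 3 pups), from before mating until the pups were collected. The comparison asks how dietary iron deficiency in early life changes the kidney transcriptome. The litter and the sex of each pup are not given in the sources used here, so litter and diet cannot be told apart, and P values measure the spread between these kidneys.

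Complement is a cascade of proteases and their substrates. The classical and lectin pathways (C1q, C1r, C1s, MASPs, C4 and C2) and the alternative pathway (C3, factor B and factor D) both assemble convertases that cleave C3, and the terminal components C5 to C9 build the membrane attack complex. Soluble regulators (such as factor I and C1 inhibitor) and membrane regulators (CD46, CD55, CD59, and Crry in rodents) restrain these steps on host cells. The liver makes most of the circulating proteins, while kidney cells and macrophages can express components locally.

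Among the members, *C6* and *C7* moved the most, in the same direction, and they lie near each other on chromosome 15. *C6* (mm9, chr15:4677175-4765456, plus strand) and *C7* (chr15:4938762-5013740, minus strand) are 173305 bp apart with their 3′ ends facing, so their promoters lie at the far ends of the pair. The promoter sequences of both are shown because the genes moved together. They are the RefSeq windows of 300 bases around the start site, in the GRCm38.p6 assembly, whose coordinates differ from those of mm9. Capitals in the *C7* promoter mark its single match to the letters TTCNNNGAA, a STAT-type motif, 164 bases before the start site.
C6 promoter (GRCm38.p6, chr15:4726960-4727259, plus strand): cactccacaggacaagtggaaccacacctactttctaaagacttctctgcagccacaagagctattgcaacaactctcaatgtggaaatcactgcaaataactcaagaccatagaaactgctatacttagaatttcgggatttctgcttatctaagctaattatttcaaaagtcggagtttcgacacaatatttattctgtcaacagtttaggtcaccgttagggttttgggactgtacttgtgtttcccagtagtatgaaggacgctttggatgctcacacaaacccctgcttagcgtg
C7 promoter (GRCm38.p6, chr15:5063724-5064023, minus strand): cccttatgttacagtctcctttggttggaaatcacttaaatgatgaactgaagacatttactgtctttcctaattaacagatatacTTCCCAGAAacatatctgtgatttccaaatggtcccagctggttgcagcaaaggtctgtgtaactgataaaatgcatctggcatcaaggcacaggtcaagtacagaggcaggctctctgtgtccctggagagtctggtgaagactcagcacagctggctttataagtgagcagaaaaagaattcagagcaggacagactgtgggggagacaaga
Promoters were found in the table for 6 of the 9 members (*C3*, *C6*, *C7*, *C1s2*, *Cd46* and *Cd55*), and both strands were searched for TTCNNNGAA, ACGTG (a form of the core of hypoxia response elements), TTGCNNAA (a C/EBP-type motif) and the NF-kB motif. The other form of the hypoxia core, GCGTG, was not searched. Besides the *C7* match, the search found 1 C/EBP-type match, TTGCGAAA in the *C3* promoter, 45 bases before its start site. Among all 32851 promoters in the table, 8.3% held TTCNNNGAA, 19.6% held ACGTG, 10.8% held TTGCNNAA and 4.51% held the NF-kB motif. A match describes letters only, and the absence of one says nothing about a factor.

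Sequencing gave 16189041 to 20374327 counts per control kidney and 13732173 to 20853293 per FeD kidney. Levels are given as CPM, counts scaled to library size with TMM factors, on which 3 counts, taken as the smallest signal, correspond to 0.145 to 0.218 CPM. The organ matched its label, with summed markers of podocytes at 572 to 813 CPM and of the thick ascending limb at 4352 to 7259 CPM. FeD kidney 2 stood apart by its adrenal markers, and control kidney 2 by the neutrophil granule genes *Mpo* and *Elane*, with values given beside *C4b*. All 9 members passed the filter on low counts, *C6* only through the FeD kidneys. In the quasi-likelihood test of edgeR, with P values adjusted by the Benjamini-Hochberg method over 15145 genes, 5 members were higher in FeD (*C6*, *C7*, *C1s2*, *Cd46* and *Cfi*, each at least 2-fold), or 4 where *C6* was left untested by requiring at least 10 counts in every kidney, 1 was lower (*Cfb*), and 3 did not pass (*C3*, *C4b* and *Cd55*). The same 6 members passed when both of these kidneys were left out. Over all tested genes, 45.7% passed (22.4% higher and 23.3% lower). By at least 2-fold, 4.34% were higher and 5.69% lower, and no member was lower by that much. The median log2 fold change (FeD minus control) was 1.14 over the members, 0.15 over the other tested complement genes and -0.00 over all tested genes. The member median includes *C6* and so depends on the filter. In 6 members every FeD kidney lay above every control kidney, and in 1 every FeD kidney lay below, where the same held for 28.4% and 29.7% of tested genes, or 58.1% in either direction. With 3 kidneys against 3, an exact two-sided permutation test of a single gene cannot go below 0.1, so the test rests on the spread shared across genes. In whole kidney RNA, a change in the number of cells of a type and a change in the RNA per cell cannot be told apart.

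**Figure D1:**
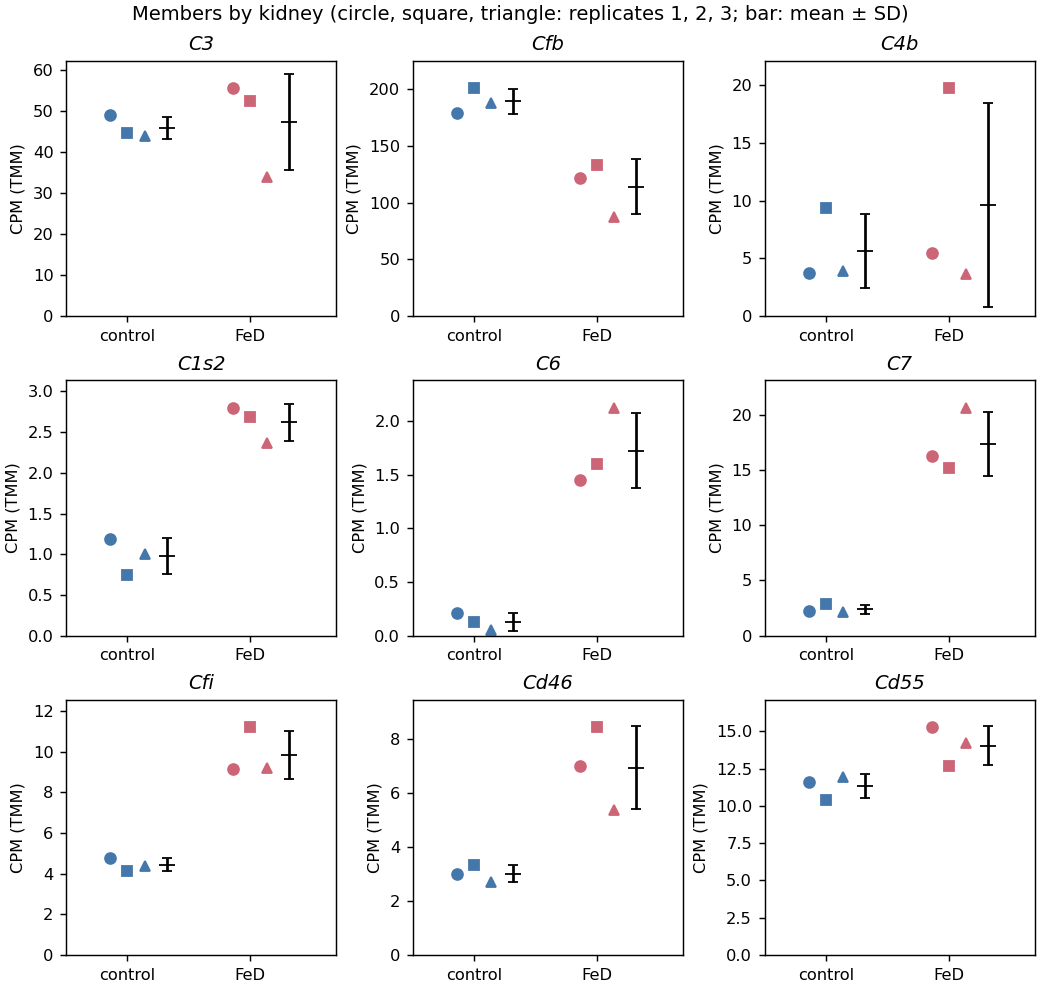
Level of each member in each kidney, in CPM on a linear axis from 0; circles, squares and triangles are replicates 1, 2 and 3 of the control (blue) and FeD (red) groups, and the black mark gives the mean ± SD of 3 kidneys. The groups are separate for *C1s2*, *C6*, *C7*, *Cfi*, *Cd46*, *Cfb* and *Cd55*, and they overlap for *C3* and *C4b*, where FeD kidney 2 reached 19.7 CPM.

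Among the members, the terminal components differed most. *C7*, which inserts the growing attack complex into a membrane, had 41, 46 and 42 counts in control kidneys 1, 2 and 3 and 290, 209 and 427 in the FeD kidneys. In CPM these were 2.20, 2.85 and 2.09 against 16.2, 15.2 and 20.6, so the lowest FeD kidney lay well above the highest control kidney. *C7* rose from 2.38 ± 0.409 to 17.4 ± 2.89 CPM (SD, n = 3 each), a log2 fold change of 2.87 ± 0.18 (SE; adjusted P = 3.3e-05). *C6*, which joins C5b before C7 does, was at or near the smallest signal in the controls, with 4, 2 and 1 counts. The FeD kidneys had 26, 22 and 44 counts of *C6* (1.46, 1.60 and 2.13 CPM), and every one of them was above all controls. The controls held 7 counts in all against 92 in the FeD kidneys, a depth-scaled ratio of 13.8 with a 95% counting interval of 6.43 to 35.2. The fitted log2 fold change of 3.69 ± 0.45 depends on the prior count, and since only the FeD kidneys carried *C6* past the filter on low counts, it is given as a description. Neither gene has a stretch of 100 transcript bases that recurs elsewhere in the genome, and neither shares exon sequence with another annotated gene.

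The remaining terminal genes did not pass or were not tested. *C8g*, which encodes the gamma chain of C8, was at 9.17 ± 1.10 CPM in controls and 10.5 ± 0.609 in FeD (log2 fold change 0.19, 95% interval -0.10 to 0.49, adjusted P = 0.25). *C8a*, the alpha chain, had 10 to 15 counts in every kidney (log2 fold change -0.05, interval -0.83 to 0.74, adjusted P = 0.92). *Hc*, the mouse gene of C5, *C8b* and *C9* had at most 3 counts in any kidney and were not tested. So of 7 terminal genes 4 were tested, *C6* only through the FeD kidneys, and the 2 that passed were *C6* and *C7*. Hepatocyte markers were summed beside these genes, and 6 markers together were at 46.5 to 58.6 CPM in controls and 154 to 196 CPM in FeD. Most of each sum was *Ttr*, at 44.6 ± 7.43 CPM in controls and 160 ± 23.5 in FeD. *Ttr* and *Apoa2* rose, while *Apoa1*, *Fgb* and *Alb* did not pass. *Alb* had 3 to 25 counts and *Ahsg* at most 9 in any kidney. Of 6 fibroblast and pericyte markers, *Pdgfra*, *Pdgfrb* and *Dcn* rose and *Col1a1* and *Lum* fell, with a summed level of 1578 to 1704 CPM in controls and 1309 to 1849 in FeD. The part of these cell types in the *C6* and *C7* result was not tested.

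Other genes near *C6* and *C7* had smaller differences. Within 500 kb on either side of the middle of the pair, 8 genes were tested. In FeD 5 were higher, *C6* and *C7* among them, and 0 lower. Over all tested genes 22.4% were higher and 23.3% lower, or 45.7% in either direction. The window was centred on *C6* and *C7* because they rose, and *C6* was tested only through the FeD kidneys. The count therefore includes 2 genes that set the window, and it is given as a description. The 3 besides *C6* and *C7* were *Rpl37* (log2 fold change 0.58), *Ptger4* (0.54) and *Ttc33* (0.30), all beyond *C7* on its promoter side. The same window around *Cfb* and *C2* on chromosome 17 held 54 tested genes, both of them included, with 8 higher and 18 lower. In either direction this share was near the 45.7% of all tested genes. By direction, more of the 54 were lower than higher, where the shares over all tested genes were 23.3% and 22.4%. *Cyp21a1*, an adrenal steroid enzyme, was among the 8, and FeD kidney 2 stood apart by its adrenal markers.

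**Figure D2:**
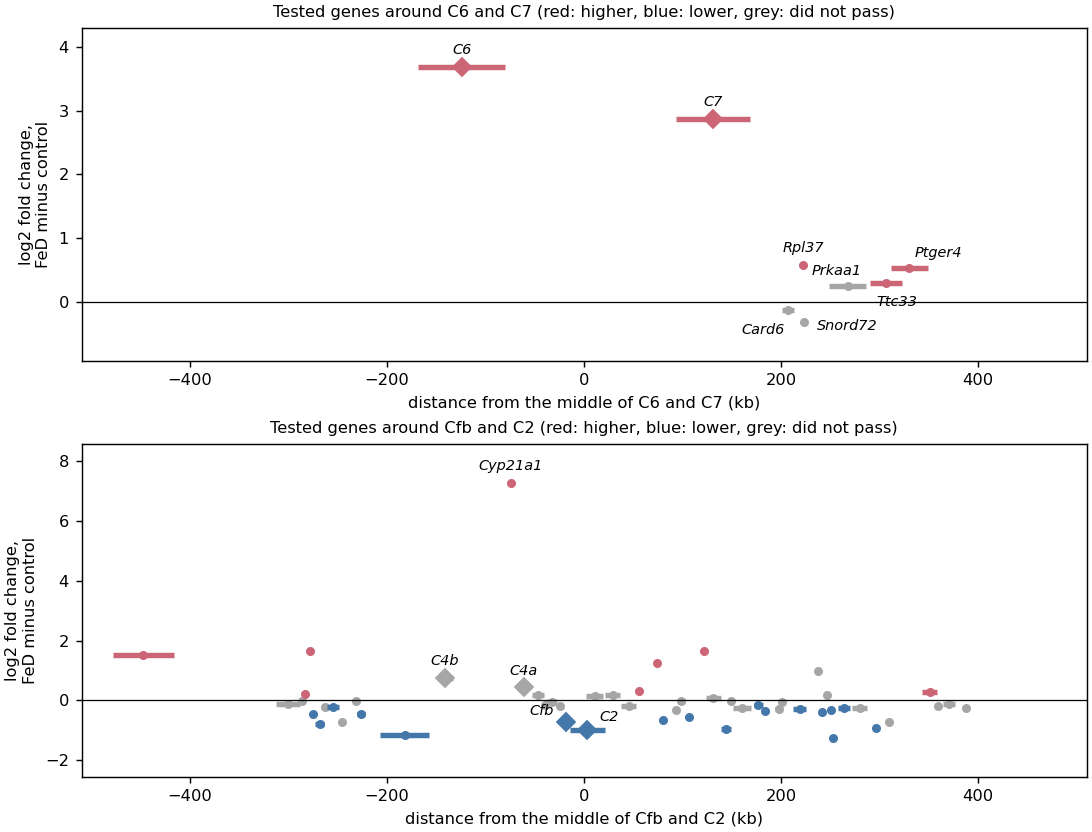
Log2 fold change (FeD minus control) of tested genes against distance in kb from the middle of *C6* and *C7* (top) and of *Cfb* and *C2* (bottom); horizontal bars give the extent of each gene, diamonds mark the complement genes, and colour marks higher (red), lower (blue) or not passed (grey). *C6* and *C7* stand at 3.69 and 2.87, above the 0.58 of *Rpl37*, the highest of the other 6. In the lower panel *Cfb* and *C2* lie side by side below 0, and *Cyp21a1*, an adrenal steroid enzyme, stands at 7.28. The 4 adrenal markers summed to 270 CPM in FeD kidney 2, against at most 7.09 CPM in any other kidney. The part of that kidney in the *Cyp21a1* value was not tested.

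The genes of the C3 convertases moved the other way or did not pass. *Cfb* encodes factor B, the protease of the alternative pathway convertase (chr17:34993319-34999463, minus strand). Control kidneys held 179, 201 and 188 CPM of *Cfb*, and FeD kidneys held 122, 133 and 87.1. All FeD kidneys were below all controls, and FeD kidney 3 was the lowest. *Cfb* fell from 189 ± 10.9 to 114 ± 24.2 CPM, a change of -39.7% and a log2 fold change of -0.73 ± 0.14 (adjusted P = 0.0039). Its neighbour *C2*, the matching protease of the classical pathway and only 85 bp away, fell from 57.6 ± 2.95 to 29.0 ± 7.54 CPM (log2 fold change -1.0 ± 0.17, adjusted P = 0.0022). Both genes share exon sequence on the same strand with the annotated gene *Gm20547*, which covers 79.5% of the exon bases of *Cfb* and 40.8% of those of *C2* and is no row of the count tables.

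*Cfd*, factor D, which cleaves factor B and is abundant in fat, fell furthest in this group. It was at 93.7 ± 6.30 CPM in controls and 21.1 ± 8.10 in FeD (log2 fold change -2.15 ± 0.23, adjusted P = 2.3e-04), with 15.5 to 30.3 CPM in FeD kidneys against 87.6 to 100 in controls. The 3 adipocyte markers moved with it, since the summed level of *Adipoq*, *Plin1* and *Cidec* was 56.3 to 66.2 CPM in controls and 20.5 to 32.4 in FeD, and all of them fell. The 4 proximal tubule markers all fell, and their sum was 6536 to 6978 CPM in controls and 2741 to 2964 in FeD. Most of that difference was *Slc34a1*, with a change of -78.6%, while *Lrp2* (-28.3%), *Cubn* (-26.6%) and *Aqp1* (-27.0%) changed by less. The part of either cell type in the *Cfd*, *Cfb* and *C2* results was not tested.

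*C3*, the substrate on which all pathways converge (chr17:57343397-57367559, minus strand), did not pass. Its levels were 48.9, 44.5 and 43.8 CPM in controls and 55.4, 52.3 and 33.8 in FeD. FeD kidneys 1 and 2 were above all controls and FeD kidney 3 was below them, so the means of 45.8 ± 2.74 and 47.2 ± 11.7 CPM differed by less than the spread (log2 fold change 0.04, 95% interval -0.35 to 0.43, adjusted P = 0.86). Without FeD kidney 3 the log2 fold change was 0.25 (adjusted P = 0.034). FeD kidney 3 was also the lowest for *Cfb* and *C2* and the highest of all 6 for *C6* and *C7*.

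*C4b*, the mouse gene of complement C4 (chr17:34865325-34880827, minus strand), varied more within the groups than between them. Counts were 69, 151 and 78 in controls and 98, 271 and 75 in FeD, or 3.70, 9.35 and 3.89 against 5.49, 19.7 and 3.63 CPM. The kidney numbered 2 was the highest of each group, and the remaining 4 kidneys overlapped. The log2 fold change was 0.75 ± 0.63 (95% interval -0.70 to 2.20, adjusted P = 0.36), and without FeD kidney 2 it was -0.28 (adjusted P = 0.62). The 4 adrenal markers summed to 270 CPM in FeD kidney 2, with 1828 counts of *Cyp11b1* and 1102 of *Th*, against at most 7.09 CPM in any other kidney. In control kidney 2 the 5 neutrophil markers summed to 15.9 CPM, with 53 counts of *Mpo* where no other kidney had more than 1, and in FeD kidney 2 they summed to 21.6 CPM, the highest of all. Their part in the *C4b* levels was not tested. Of the windows of 100 bases in *C4b* transcripts, 15.2% recur elsewhere, in *C4a*, 65209 bp away, so reads of the pair could be split or lost. *C4a* itself had 14 to 41 counts per kidney (log2 fold change 0.44, interval -0.70 to 1.57, adjusted P = 0.50).

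**Figure D3:**
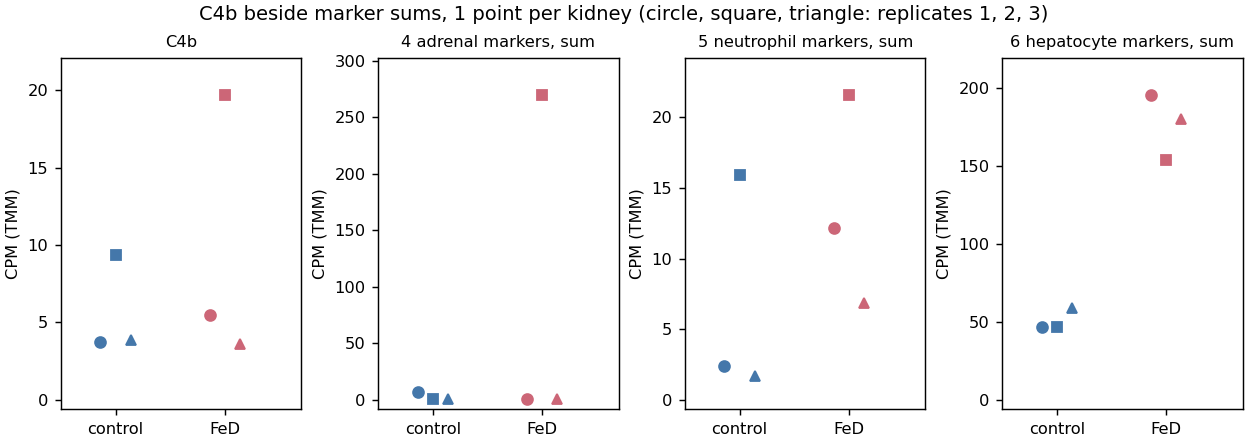
*C4b* and the summed levels of adrenal, neutrophil and hepatocyte markers, in CPM, with 1 point per kidney (circle, square and triangle are replicates 1, 2 and 3; control blue, FeD red). FeD kidney 2 (red square) is the highest for *C4b* at 19.7 CPM, for adrenal markers at 270 CPM and for neutrophil markers at 21.6 CPM, while it is the lowest FeD kidney for hepatocyte markers at 154 CPM. Most of the hepatocyte sum in every kidney is *Ttr*.

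Among the recognition molecules and early proteases, *C1s2* rose. It encodes another mouse form of C1s, the protease that cleaves C4 and C2 (chr6:124574584-124587055, minus strand). Counts were low, 22, 12 and 20 in controls and 50, 37 and 49 in FeD, and the groups did not overlap. Its level went from 0.974 ± 0.220 to 2.62 ± 0.224 CPM (log2 fold change 1.41 ± 0.26, adjusted P = 0.0029). *C1s1*, the other form, was at 59.8 ± 4.14 CPM in controls and 56.7 ± 5.27 in FeD (log2 fold change -0.07, 95% interval -0.28 to 0.13, adjusted P = 0.53), and *C1ra* was at 28.6 ± 0.906 and 25.9 ± 2.46 CPM (adjusted P = 0.24). The annotated *C1s1* gene overlaps 6.7% of the exon bases of *C1s2* on the same strand, and 2.03% of the 100-base windows of *C1s2* recur elsewhere in the genome.

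Of 15 genes in the recognition group 10 were tested, 4 were higher and 0 lower (median log2 fold change 0.14). The share that passed was no larger than the 45.7% of all tested genes. *Masp1*, a protease of the lectin pathway, rose from 2.24 ± 0.347 to 6.18 ± 2.28 CPM (log2 fold change 1.47 ± 0.29, adjusted P = 0.0042), and FeD kidney 3 held the most, 8.70 CPM. *C1qa* and *C1qc*, chains of C1q, rose by log2 fold changes of 0.42 (adjusted P = 0.025) and 0.55 (adjusted P = 0.007), while *C1qb* had 0.36 (interval 0.04 to 0.68, adjusted P = 0.064). Macrophages are a main source of C1q, and the sum of 7 macrophage markers was 131 to 141 CPM in controls and 131 to 159 in FeD, where *Cd68*, *Mrc1* and *Ctss* rose and *Csf1r* fell. *Mbl1*, *Mbl2*, *Fcnb*, *Colec10* and *C1rb* had at most 16 counts in any kidney and were not tested.

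The soluble and membrane regulators were mixed. *Cfi* encodes factor I, the protease that inactivates C3b and C4b (chr3:129539655-129578246, plus strand). Its levels were 4.78, 4.15 and 4.38 CPM in controls and 9.13, 11.2 and 9.18 in FeD, without overlap. *Cfi* rose by a log2 fold change of 1.14 ± 0.15 (adjusted P = 6.3e-04).

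*Serping1*, the C1 inhibitor, rose from 159 ± 6.88 to 256 ± 56.6 CPM (log2 fold change 0.69 ± 0.14, adjusted P = 0.0046). In this group *Clu*, *Cpn1* and *Cpn2* fell. *Clu*, clusterin, which binds terminal complexes, went from 271 ± 30.5 to 167 ± 20.3 CPM (log2 fold change -0.70, adjusted P = 0.0015). *Cpn1*, the catalytic subunit of carboxypeptidase N, which trims anaphylatoxins, went from 116 ± 37.8 to 60.2 ± 16.2 CPM with overlapping groups (log2 fold change -0.94, adjusted P = 0.02). *Cpn2*, its other subunit, had 46 counts over the controls and 5 over the FeD kidneys. The control to FeD ratio was 8.77, with a 95% counting interval of 3.50 to 28.3. Since only the controls carried *Cpn2* past the filter on low counts, it is given as a description. Of 12 genes in this group 10 were tested, with 2 higher, 3 lower (*Cpn2* among them) and a median log2 fold change of -0.22. Over all tested genes 45.7% passed in either direction. *Cfhr3* had no row in the tables.

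*Cd46* encodes a membrane cofactor for factor I (chr1:196867479-196918442, minus strand). It had 56, 54 and 54 counts in controls and 125, 116 and 111 in FeD, or 3.01, 3.35 and 2.69 against 7.0, 8.43 and 5.37 CPM, so the groups were separate. *Cd46* rose by a log2 fold change of 1.20 ± 0.21 (adjusted P = 0.0025). In mice *Cd46* is best known from testis. *Cr1l*, the gene of Crry, which acts at the same step in rodents and lies 11540 bp from *Cd46*, rose from 58.6 ± 2.60 CPM in controls to 68.3 ± 5.34 in FeD (log2 fold change 0.22 ± 0.08, adjusted P = 0.045).

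*Cd55*, decay-accelerating factor, which takes convertases apart (chr1:132335604-132359321, minus strand), was at 11.6, 10.4 and 12 CPM in controls and 15.3, 12.7 and 14.2 in FeD. Every FeD kidney was above every control kidney by a small margin, and the gene did not pass the adjusted test (log2 fold change 0.31 ± 0.12, interval 0.04 to 0.58, adjusted P = 0.058, unadjusted P = 0.028). Of its 100-base windows 5.36% recur elsewhere, in *Cd55b* 16017 bp away, and *Cd55b* had at most 2 counts in any kidney. The noncoding *Gm16083* overlaps 2.1% of its exon bases on the opposite strand. *Cd59a*, which blocks the last step of the attack complex, was at 64.6 ± 0.523 and 67.7 ± 2.18 CPM (log2 fold change 0.07, interval -0.07 to 0.20, adjusted P = 0.37). Its paralog *Cd59b* fell from 1.72 ± 0.303 to 0.598 ± 0.0498 CPM (log2 fold change -1.51 ± 0.28, adjusted P = 0.0033).

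Of the 8 complement receptors 7 were tested and 1 passed, beside 45.7% of all tested genes. *Itgam*, the alpha chain of complement receptor 3 on myeloid cells, rose from 2.41 ± 1.06 to 6.19 ± 1.61 CPM (log2 fold change 1.37 ± 0.33, adjusted P = 0.0096). *C5ar1*, a receptor of the C5a fragment, had 0.68 (interval 0.11 to 1.25, adjusted P = 0.055) and *C3ar1* had 0.63 (interval -0.02 to 1.28, adjusted P = 0.10). *Itgb2*, the beta chain that pairs with *Itgam*, had 0.24 (interval -0.47 to 0.96, adjusted P = 0.55), and *Itgax*, another alpha chain, had -0.32 (interval -1.0 to 0.36, adjusted P = 0.40). *Vsig4*, a receptor of resident macrophages, had at most 3 counts in any kidney.

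Over the pathway list of 55 genes, which includes the 9 members, 54 had a row and 43 were tested. In FeD 11 were higher, 7 were lower and 25 did not pass, with a median log2 fold change of 0.24. *C6* was tested only through the FeD kidneys and *Cpn2* only through the controls. Leaving out the members, 34 were tested, with 6 higher, 6 lower and a median of 0.15. The share that passed was below the 45.7% of all tested genes with the members and without them. The terminal group had a median of 1.53 over 4 tested genes, which include *C6* and so depend on the filter. Besides *C6*, *C7* had 2.87, *C8g* 0.19 and *C8a* -0.05. The convertase group had the lowest median, -0.35 over 6 tested genes, where 0 were higher and 3 lower.

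**Figure D4:**
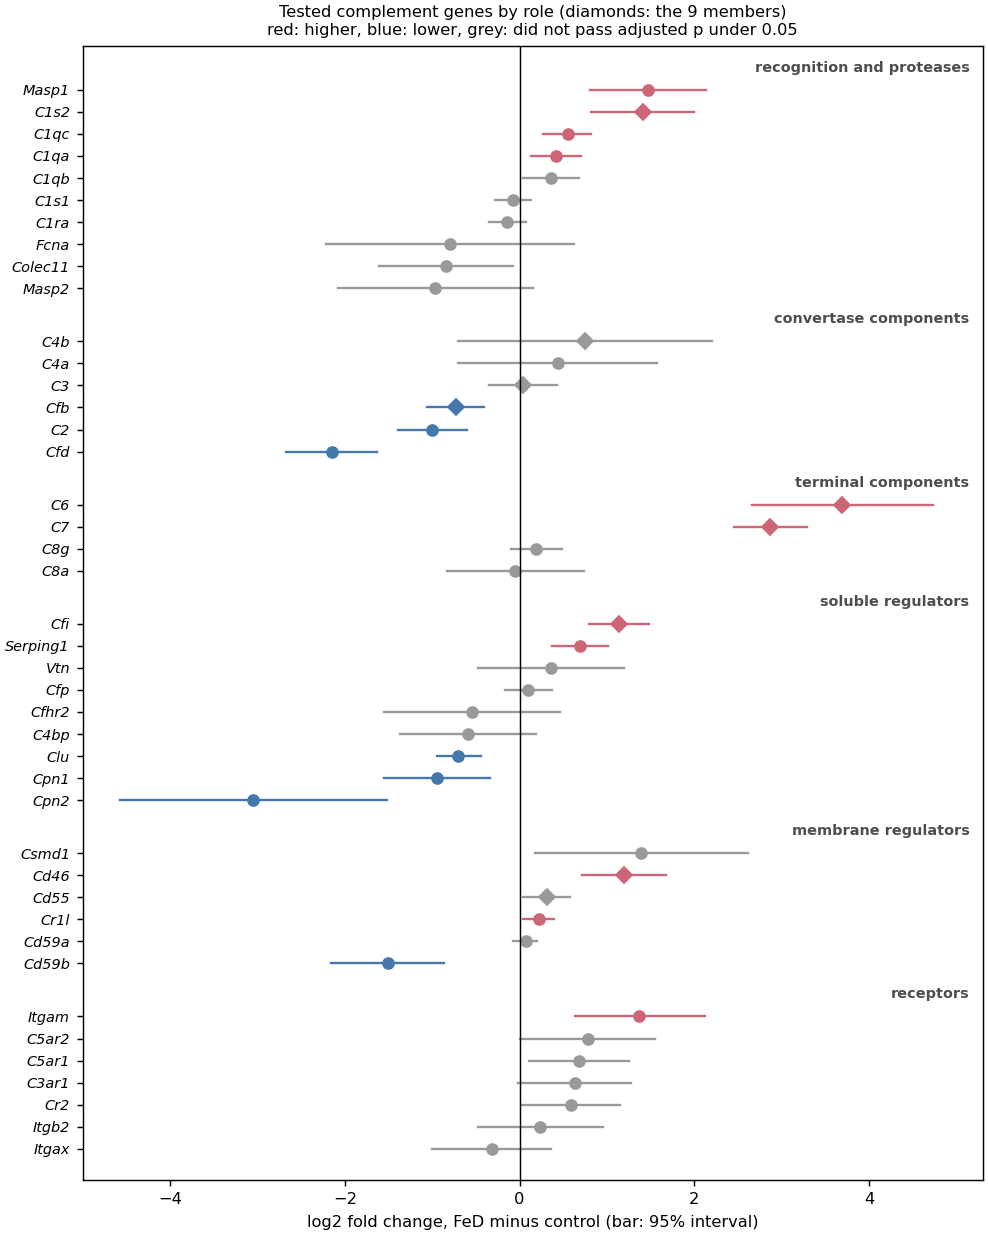
Log2 fold change (FeD minus control) with its 95% interval for 42 of the 43 tested complement genes, grouped by role; diamonds are the 9 members, and red, blue and grey mark genes that were higher, lower or did not pass. *C6* and *C7* stand farthest to the right at 3.69 and 2.87, *Cpn2* and *Cfd* farthest to the left at -3.05 and -2.15, and the 3 convertase genes that passed all lie below 0. *C6* passed the filter on low counts only through the FeD kidneys and *Cpn2* only through the controls.

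Levels of different genes were compared per kilobase of exon. In control kidneys the order in CPM per kilobase was *Cfb* (67.0 ± 3.84), *C3* (8.92 ± 0.534), *Cd55* (2.33 ± 0.167), *Cfi* (2.14 ± 0.153), *C4b* (0.992 ± 0.564), *Cd46* (0.940 ± 0.102), *C7* (0.890 ± 0.153), *C1s2* (0.318 ± 0.0718) and *C6* (0.0321 ± 0.0205). Neighbours whose kidneys overlapped in this order were *Cd55* with *Cfi*, *C4b* with *Cd46*, and *Cd46* with *C7*. In FeD kidneys *C7* came after *Cfb* and *C3*, at 6.49 ± 1.08 CPM per kilobase against 40.4 ± 8.55 and 9.19 ± 2.28, and its range overlapped that of *C3*. *Cfi* followed at 4.74 ± 0.568, *Cd55* at 2.89 ± 0.273, *Cd46* at 2.16 ± 0.479, *C4b* at 1.69 ± 1.54, *C1s2* at 0.856 ± 0.0732 and *C6* at 0.428 ± 0.0876. The FeD ranges of *Cd55* and *Cd46*, *Cd46* and *C4b*, and *C4b* and *C1s2* overlapped. With the length of the longest transcript in place of all exons, 7 of the 9 control ranks were the same, and *Cd46* (1.65) came before *C4b* (1.05), with *Cd55* at 3.61. So *C7* passed *Cd55*, *Cfi*, *C4b* and *Cd46* in the order, *Cfb* stayed first in spite of its fall, and *C6* stayed last in spite of its rise.

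**Figure D5:**
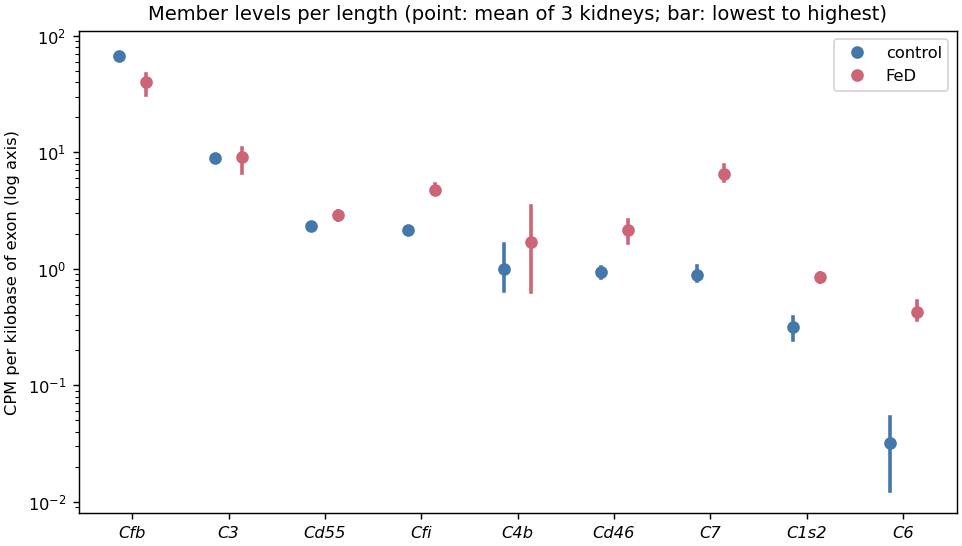
Level of each member in CPM per kilobase of exon on a log axis, in the order of the control means; points are means of 3 kidneys and bars run from the lowest to the highest kidney, control in blue and FeD in red. *Cfb* is the highest in both groups, at 67.0 and 40.4, and *C7* moves from 0.890 to 6.49, next to *C3* at 9.19.

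The genes most like *C6* over the 6 kidneys, by Euclidean distance between centred log2 CPM profiles, were *Oxtr* (0.626), *Usp29* (0.676) and *Opcml* (0.725). *Oxtr*, the oxytocin receptor, was at 1.93 ± 0.358 CPM in controls and 12.3 ± 1.95 in FeD. *Usp29*, a ubiquitin-specific protease, had 0 to 3 counts in controls and 12 to 20 in FeD. Like *C6*, it passed the filter on low counts only through the FeD kidneys. *Opcml*, a cell adhesion molecule of the immunoglobulin family, was at 0.589 ± 0.128 and 6.02 ± 1.14 CPM. Its 9 to 13 control counts alone would not have carried it past the filter either. As each profile mainly separates the groups, likeness here is a description of the same contrast.

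Cytokines, receptors and transcription factors known to act on complement genes in other settings were listed as well. Of 14 genes 11 were tested, with 7 higher, 1 lower and a median log2 fold change of 0.87. Over all tested genes 22.4% were higher and 23.3% lower, and the list was chosen with earlier results known. *Osmr*, the oncostatin M receptor, rose from 21.5 ± 3.14 to 67.2 ± 4.86 CPM (log2 fold change 1.64 ± 0.12), and *Il6ra*, the receptor of interleukin-6, rose by 1.42 ± 0.11 on the log2 scale. *Cebpd* (1.94 ± 0.17), *Cebpb* (0.71 ± 0.15), *Stat3* (0.87 ± 0.08) and *Socs3* (1.09 ± 0.18) were also higher, with adjusted P of 0.0056 or less. *Il1b*, the last of the 7, had 8 to 11 counts in controls and 18 to 40 in FeD (1.52 ± 0.40). Since it passed the filter on low counts only through the FeD kidneys, it is given as a description. *Rela* (0.16, adjusted P = 0.093), *Nfkb1* (0.06, adjusted P = 0.51) and *Irf1* (-0.25, adjusted P = 0.093) did not pass. *Il6*, *Tnf* and *Ifng* had at most 4 counts in any kidney and were not tested. Whether any of these genes bears on the complement levels was not tested.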

How the data were processed

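Poly(A) RNA of whole kidneys was sequenced by the authors, who aligned reads to mm9 (CASAVA 1.8.2, Trimmomatic, TopHat2 2.0.11 and HTSeq, per the labels) and deposited raw counts per gene, not normalized and not pooled. The gene annotation and the strand setting of HTSeq are not given in the sources used here, so overlapping and near-identical genes are uncertain. The labels gave each kidney its group.

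The deposited counts were tested in R 4.3.3 with edgeR 4.0.16 (filterByExpr, TMM, glmQLFit and glmQLFTest, Benjamini-Hochberg adjustment over 15145 of 24422 genes, two-sided, threshold 0.05); the SE is the log2 fold change divided by the square root of F. Alternatives were DESeq2 1.42.0, other scalings and filters, the replicate number as a block and leaving out kidneys. Within groups, pairs of kidneys differed beyond sampling noise (chi-square per degree of freedom 3.77 to 30.4). Totals of 13732173 to 20853293 counts per kidney set the precision; floors and the counting intervals of *C6* and *Cpn2* cover counting error only, as reads carry no molecular identifiers, and the intervals of log2 fold changes come from the fit and include the spread between kidneys. Levels per kilobase used the union of exons, or the longest transcript as an alternative. Positions, exon lengths and copies came from the GENCODE annotation of NCBIM37 (mm9), where 21998 symbols matched 1 gene. It names *C1s2* Gm5077.

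Named genes are the 9 members, other pathway genes with an adjusted P under 0.05, copies and exon neighbours, the 3 profiles nearest to the member that changed most, and markers. Members and lists were chosen with earlier results of these data known. Named outside this rule, with their values known, were genes near *C6* and *C7*, *Cyp21a1*, and pathway and inducer genes that did not pass. Of the listed genes, 2 are not reported here by name.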

Additional observations from a re-analysis of the deposited data

How the results depend on the processing

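Under 13 alternatives the count of members that passed stayed within 5 to 7. *C6*, *C7*, *Cfi*, *C1s2*, *Cd46* and *Cfb* kept their direction and their side of the threshold in every alternative that tested them; *C6* was not tested when at least 10 counts were required in every kidney. When each kidney was left out in turn, log2 fold changes ranged from 3.28 to 4.27 for *C6*, 2.74 to 3.01 for *C7*, 1.06 to 1.21 for *Cfi*, 1.26 to 1.57 for *C1s2*, 1.06 to 1.37 for *Cd46*, -0.84 to -0.56 for *Cfb*, 0.25 to 0.40 for *Cd55*, -0.08 to 0.25 for *C3* and -0.28 to 1.31 for *C4b*. *C3* turned negative without FeD kidney 1 (-0.08), without FeD kidney 2 (-0.02) and without both kidneys numbered 2 (-0.05, an alternative chosen after seeing the data). *C4b* turned negative without FeD kidney 2 (-0.28). *Cd55* passed without FeD kidney 2 (0.40, adjusted P = 0.029). *Cr1l* was lost under 8 alternatives, *C1qa* under 4 and *Cpn1* under 4; apart from the samples left out, the cause was not tested. Over all genes the number called was 6924, and 4243 without both kidneys numbered 2.

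Same-numbered kidneys did not deviate together (r = -0.16, 0.00 and -0.03 across genes), so the numbers were not taken as pairs. With the replicate block, 6 members passed, 6444 genes were called in all, and of the complement genes named as passing only *Cr1l* was lost (0.22, adjusted P = 0.053). Depth limits *C6*, *Cpn2*, *Il1b* and the genes that were not tested.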
